A study of Mus musculus with 15 samples.

Results

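T cell restraint and tolerance genes were followed in mouse lymph node lymphatic endothelial cells (LECs) exposed to the growth factor VEGF-C. The set held 9 genes, found by symbol among the 45706 genes of the deposited expression table: Cd274, Pdcd1lg2, Nos2, Cd200, Cd276, Tnfrsf14, Lgals9, Entpd1 and Nt5e. All 9 have a row in that table, and 8 of them had enough counts to be tested, Pdcd1lg2 being the exception. The rows were taken by symbol and not by a threshold on their values. The set was drawn up with earlier results of these data known, so the choice was not blind to them.

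The cells were cultured LECs of female C57Bl/6 mice, sorted as Pdpn+ CD31+ CD45- cells after axillary, brachial, cervical, inguinal and popliteal nodes had been pooled. All 3 groups were grown in serum-containing MEMα and kept for 72 h, either unstimulated (0 ng/mL), with 10 ng/mL or with 100 ng/mL of purified recombinant murine VEGF-C that had been produced in HEK-293E, a human embryonic kidney cell line. Each group had 5 libraries, lettered A to E, of poly-A selected, stranded RNA sequencing. Nothing in the labels ties the 5 libraries of a dose to independent cultures or mice. A p-value here therefore reflects library-to-library spread, which may be technical.

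LECs of the lymph node display self antigens and transplanted or tumour antigens to T cells, and they are known to restrain or delete the T cells they engage. The ligand PD-L1 (Cd274) signals to the receptor PD-1 on activated T cells, and nitric oxide made by inducible nitric oxide synthase (Nos2) is known from mouse nodes to limit T cell proliferation. The other genes act through separate routes, namely the surface ligands CD200, B7-H3 (Cd276) and HVEM (Tnfrsf14), the secreted lectin galectin-9 (Lgals9), and the ectoenzymes CD39 (Entpd1) and CD73 (Nt5e), which convert extracellular ATP to adenosine in sequence.

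Libraries held 27784906 to 38590841 estimated counts. The LEC markers Prox1, Lyve1, Flt4 and Pdpn were present in all 15 libraries, the lowest value being 51.8 CPM (counts divided by library size, with scaling by trimmed mean of M-values) for Pdpn. Pecam1 and Cdh5, which blood endothelium shares, averaged 1806 and 3450 CPM at 100 ng/mL and 1587 and 2162 CPM in unstimulated cells. The other two LEC markers were low and lower still at 100 ng/mL, Itga2b with means of 6.31 CPM at 100 ng/mL and 26.2 CPM in unstimulated cells, and Ackr4 with 0.395 CPM at 100 ng/mL and 3.60 CPM in unstimulated cells. Of 4 blood endothelial markers Emcn, Plvap and Cd34 were abundant, with means of 1213, 1633 and 636.0 CPM at 100 ng/mL and of 2064, 1381 and 463.3 CPM in unstimulated cells, whereas Ly6c1 had 3.09 CPM at 100 ng/mL and 4.49 CPM in unstimulated cells. Ccl21a, a chemokine that LECs of the node make in vivo, averaged 0.0441 CPM at 100 ng/mL and 0.00339 CPM in unstimulated cells. Unstimulated library E, 10 ng/mL library D and 100 ng/mL library B stood apart from the rest of their groups on the second principal component, with scores of -41.1, -28.2 and -45.1. In those 3 libraries Prox1, the transcription factor that specifies lymphatic endothelium, was the lowest of its group, at 101.6, 158.0 and 193.2 CPM. Calls of the 9 genes that change without these libraries, and the correlations of within-group deviations, are given with and without them. Leaving them out was chosen after seeing the data.

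At 100 ng/mL, 6 of the 8 tested genes passed the threshold against unstimulated cells, namely an adjusted p under 0.05 in edgeR's quasi-likelihood test with Benjamini-Hochberg adjustment over all 17650 tested genes. Nos2 and Cd276 were higher, and Cd274, Cd200, Tnfrsf14 and Entpd1 were lower. Of all tested genes 42.9% passed in this comparison, 21.4% higher and 21.5% lower. The median log2 fold change was -0.36 over the 8 genes and 0.01 over all tested genes. For 4 of the 8, Nos2, Cd200, Cd276 and Tnfrsf14, the 5 libraries of one group lay wholly above or below the 5 of the other, as they did for 27.3% of all tested genes. In bulk RNA, fewer cells of a type and less RNA per cell cannot be told apart.

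**Figure D1:**
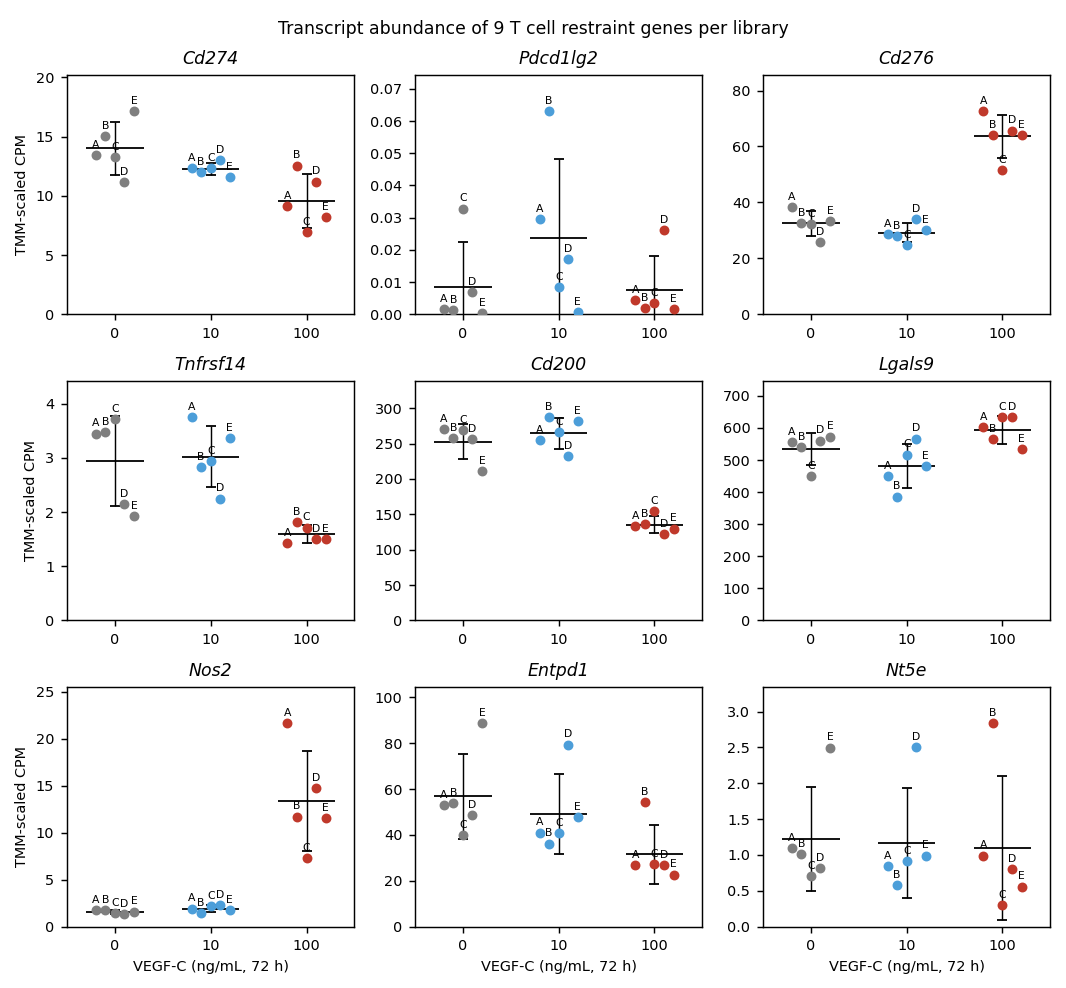
CPM of the 9 genes in each library (points, one panel per gene, with the mean and SD of 5 libraries) at 0, 10 and 100 ng/mL of VEGF-C. Nos2 and Cd276 were higher in all 5 libraries at 100 ng/mL than in any other library, and Cd200 and Tnfrsf14 were lower.

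Levels of different genes can be compared only per length, and for this the deposited RPKM (reads per kilobase of gene length, scaled by depth) was used. In unstimulated cells Lgals9 was highest with 134.5 ± 13.6 RPKM (SD, n = 5), followed by Cd200 with 40.9 ± 3.67 RPKM. Entpd1 with 5.50 ± 1.90 RPKM and Cd276 with 5.49 ± 0.818 RPKM came next and their libraries overlapped, as did those of Cd274 with 2.09 ± 0.360 RPKM and Tnfrsf14 with 1.36 ± 0.383 RPKM. Nos2 stood at 0.2002 ± 0.0258 RPKM and Nt5e at 0.0789 ± 0.0485 RPKM, with Pdcd1lg2 at 0.00277 RPKM. The set therefore spanned a near-absent ligand and an abundant lectin.

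At 10 ng/mL the order was the same apart from Cd276, at 4.81 ± 0.580 RPKM, and Entpd1, at 4.62 ± 1.67 RPKM, whose libraries again overlapped. At 100 ng/mL Lgals9 (145.0 ± 9.76 RPKM) and Cd200 (21.3 ± 1.85 RPKM) still led, followed by Cd276 at 10.45 ± 1.24 RPKM, no longer overlapping with Entpd1. Nos2 moved up to 1.67 ± 0.653 RPKM at 100 ng/mL, a level whose libraries overlapped with those of Entpd1 at 2.96 ± 1.21 RPKM and Cd274 at 1.39 ± 0.329 RPKM. Tnfrsf14 followed at 0.715 ± 0.0744 RPKM and Nt5e at 0.0684 ± 0.0628 RPKM.

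**Figure D2:**
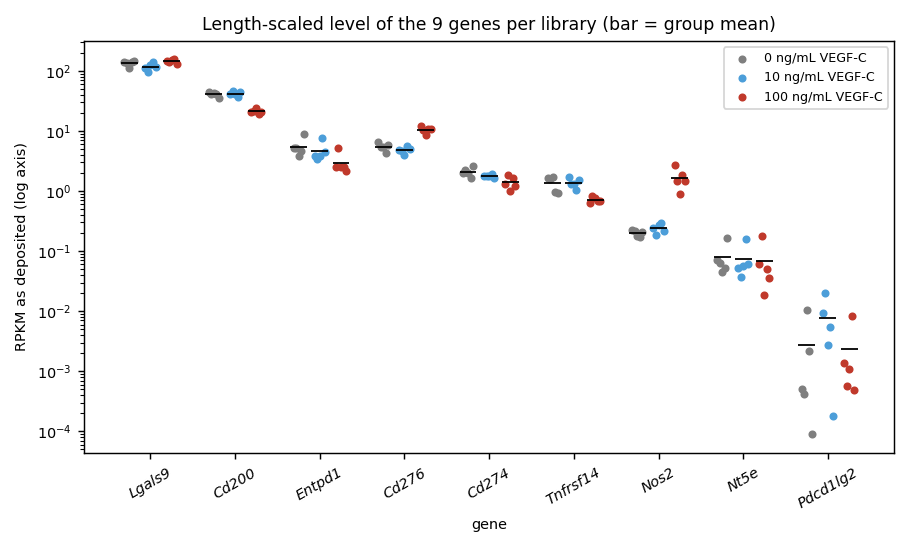
Deposited RPKM (log axis) of the 9 genes in every library at 0, 10 and 100 ng/mL of VEGF-C, with genes in the order of their unstimulated means. Lgals9 and Cd200 lie above the rest at every dose, and Pdcd1lg2 lies below 0.0203 RPKM in all 15 libraries.

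Both ligands of PD-1 are encoded on chromosome 19 in GENCODE M21 on GRCm38. Cd274 (ENSMUSG00000016496) lies at chr19:29367455-29388095 and Pdcd1lg2 (ENSMUSG00000016498), which encodes PD-L2, at chr19:29410919-29471161. They lie on the plus strand and 22823 bases separate them. Cd274 had 13.5, 15.04, 13.3, 11.2 and 17.2 CPM in unstimulated libraries A to E, 12.3, 11.997, 12.3, 13.0 and 11.6 CPM with 10 ng/mL, and 9.16, 12.6, 6.91, 11.2 and 8.19 CPM with 100 ng/mL. Libraries B and D of the highest dose reached into the range of unstimulated cells, and A, C and E lay below it. The mean was 9.61 ± 2.28 CPM at 100 ng/mL and 14.0 ± 2.23 CPM in unstimulated cells, a log2 fold change of -0.55 ± 0.14 (SE; 95% interval -0.85 to -0.24; edgeR adjusted p = 0.00614). Leaving out the 3 libraries that stood apart gave -0.58 ± 0.13 (adjusted p = 0.00266).

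Pdcd1lg2 was not detectable at this depth. No library held more than 2.07 estimated counts of it, against a detection floor of 3 counts, which equals 0.0793 to 0.109 CPM per library. Its summed counts were 1.39 over the 5 unstimulated libraries, 4.09 over the 10 ng/mL libraries and 1.07 over the 100 ng/mL libraries. No fold change is given for it. The receptor gene Pdcd1 was likewise too low to test.

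Cd274 shares exonic bases with AC119228.1, an antisense gene, over 511 bases, and 12.4% of the 50-base stretches in its transcripts also occur in another gene. AC119228.1 has 0 rows in the deposited table, and the sources used here do not say how such reads were counted. The Cd274 level carries that uncertainty.

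Cd276 and Tnfrsf14, a B7 family ligand and a member of the tumour necrosis factor receptor superfamily, moved in opposite directions. Cd276 (ENSMUSG00000035914, chr9:58524298-58555437, minus strand) encodes B7-H3, whose counter-receptor on T cells is not settled. Its libraries A to E held 38.3, 32.5, 32.3, 25.9 and 33.3 CPM unstimulated, 28.7, 28.1, 24.7, 34.0 and 30.2 CPM with 10 ng/mL, and 72.6, 64.0, 51.6, 65.6 and 64.0 CPM with 100 ng/mL. The lowest library of the highest dose lay above every other library. Cd276 rose to 63.6 ± 7.58 CPM at 100 ng/mL, against 32.5 ± 4.42 CPM in unstimulated cells, a 1.96-fold difference (log2 fold change 0.97 ± 0.11, 95% interval 0.74 to 1.20, edgeR adjusted p = 5.57e-06). The plus-strand gene Gm10657 overlaps 416 exonic bases of Cd276 and had 12.2 to 27.1 counts per library at 100 ng/mL and 9.96 to 18.7 counts in unstimulated libraries, where Cd276 itself had at least 837 counts.

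Tnfrsf14 (ENSMUSG00000042333, chr4:154921933-154928563, minus strand) encodes HVEM, which binds the inhibitory receptor BTLA and also the costimulatory ligand LIGHT. It had 3.45, 3.48, 3.72, 2.15 and 1.93 CPM in unstimulated libraries A to E, 3.75, 2.83, 2.94, 2.25 and 3.36 CPM with 10 ng/mL, and 1.43, 1.82, 1.71, 1.49 and 1.501 CPM with 100 ng/mL. Every library of the highest dose lay below the lowest unstimulated one, although the gap to library E was narrow. The fall to 1.59 ± 0.166 CPM at 100 ng/mL, against 2.94 ± 0.839 CPM in unstimulated cells, gave a log2 fold change of -0.89 ± 0.19 (95% interval -1.30 to -0.48, adjusted p = 0.00179). Counts behind these values were low, 41.0 to 54.5 per library at 100 ng/mL and 69.5 to 130.5 in unstimulated libraries.

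Cd200 and Lgals9 were the most abundant genes of the set and differed in what they did. Cd200 (ENSMUSG00000022661, chr16:45382135-45409053, minus strand) encodes a membrane glycoprotein that signals to the inhibitory receptor CD200R on myeloid and some lymphoid cells. It had 270.3, 257.6, 269.1, 256.3 and 210.6 CPM in unstimulated libraries A to E, 254.5, 287.3, 265.9, 232.9 and 281.9 CPM with 10 ng/mL, and 132.8, 136.7, 154.3, 121.8 and 129.9 CPM with 100 ng/mL. All 5 libraries of the highest dose lay below all 10 others. Cd200 fell to 135.1 ± 12.1 CPM at 100 ng/mL, against 252.8 ± 24.4 CPM in unstimulated cells, which is 0.535 times that level (log2 fold change -0.90 ± 0.08, 95% interval -1.08 to -0.73, adjusted p = 7.00e-07).

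Lgals9 (ENSMUSG00000001123, chr11:78962974-78984946, minus strand) encodes galectin-9, a lectin that binds glycans on TIM-3 and other T cell surface proteins. It had 556.0, 539.4, 448.9, 560.3 and 572.9 CPM in unstimulated libraries A to E, 450.8, 385.9, 517.2, 567.1 and 480.5 CPM with 10 ng/mL, and 603.5, 564.4, 632.8, 633.5 and 533.5 CPM with 100 ng/mL. The groups overlapped. The difference between 593.6 ± 43.9 CPM at 100 ng/mL and 535.5 ± 49.9 CPM in unstimulated cells did not pass the test, with a log2 fold change of 0.15 ± 0.10 whose 95% interval ran from -0.06 to 0.35 (adjusted p = 0.236).

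Promoter sequences of these ligands are shown because PD-L1 and galectin-9 are known targets of interferon signalling and the members of the set moved apart. RefSeq windows on GRCm38.p6, from 250 bases before to 50 bases after the annotated start, were at hand for 8 of the 9 genes, Nos2 being the exception. They were searched on both strands for 4 motifs, whose shares refer to all 32851 promoter windows of the same length. The interferon regulatory factor (IRF) type motif, a GAAA followed after any 2 bases by a further GAAA, is present in 3.44% of them. The kappaB type, a GGG followed after any 2 bases by TTTCC, is present in 1.63%, the STAT type TTCNNNGAA in 8.3%, and the TATA box TATAAA in 13.6%. Only the IRF-type letters were found, in Tnfrsf14 (chr4:154928028-154928327, minus strand) and Lgals9 (chr11:78984875-78985174, minus strand), and no searched motif was found in Cd274 (chr19:29367188-29367487, plus strand) or Cd200 (chr16:45409004-45409303, minus strand). Each sequence reads 5′ to 3′ on the strand of its gene, and capitals mark the IRF-type matches on the opposite strand.
Tnfrsf14: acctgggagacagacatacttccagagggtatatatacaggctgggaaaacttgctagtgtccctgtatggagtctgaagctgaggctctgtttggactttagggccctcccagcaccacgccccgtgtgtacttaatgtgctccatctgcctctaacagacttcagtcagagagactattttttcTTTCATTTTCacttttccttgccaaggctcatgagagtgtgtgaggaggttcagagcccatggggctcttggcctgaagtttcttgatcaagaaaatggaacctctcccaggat
Lgals9: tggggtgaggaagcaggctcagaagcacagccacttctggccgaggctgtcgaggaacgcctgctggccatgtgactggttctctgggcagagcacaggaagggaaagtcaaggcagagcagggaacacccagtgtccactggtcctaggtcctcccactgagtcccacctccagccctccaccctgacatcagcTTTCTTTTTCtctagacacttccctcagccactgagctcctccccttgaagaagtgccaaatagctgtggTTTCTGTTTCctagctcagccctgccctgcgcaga
Cd274: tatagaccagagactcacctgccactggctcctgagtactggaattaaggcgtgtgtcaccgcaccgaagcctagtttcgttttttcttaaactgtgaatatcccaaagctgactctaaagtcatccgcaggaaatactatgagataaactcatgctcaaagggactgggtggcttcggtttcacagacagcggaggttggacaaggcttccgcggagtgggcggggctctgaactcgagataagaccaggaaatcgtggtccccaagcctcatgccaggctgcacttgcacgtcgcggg
Cd200: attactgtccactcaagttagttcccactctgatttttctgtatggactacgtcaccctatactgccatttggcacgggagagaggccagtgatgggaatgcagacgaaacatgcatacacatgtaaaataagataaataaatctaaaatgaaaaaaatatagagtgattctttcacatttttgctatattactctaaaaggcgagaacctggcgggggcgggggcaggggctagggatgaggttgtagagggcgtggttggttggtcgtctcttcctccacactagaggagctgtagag

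The match in Tnfrsf14 covers positions -64 to -55 from the RefSeq start, which lies 486 bases inside the GENCODE gene. Lgals9 has 2 matches, at positions -55 to -46 and 16 to 25. A match describes letters in a window and is not a shown binding site, and the absence of a match says only that these letters are not in this window. Tnfrsf14 fell and Lgals9 did not pass the test, so the 2 windows that hold the motif belong to genes with different results.

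Nos2 showed the largest fold change of the set. Nos2 (ENSMUSG00000020826) lies at chr11:78920787-78960254 on the plus strand, and its end faces the end of Lgals9 across 2719 bases. It had 1.76, 1.73, 1.402, 1.34 and 1.59 CPM in unstimulated libraries A to E, 1.91, 1.46, 2.20, 2.29 and 1.72 CPM with 10 ng/mL, and 21.7, 11.7, 7.31, 14.7 and 11.6 CPM with 100 ng/mL. The lowest library of the highest dose, C, held more than any library of the other groups. Nos2 rose to 13.4 ± 5.32 CPM at 100 ng/mL, against 1.56 ± 0.187 CPM in unstimulated cells, an 8.55-fold difference (log2 fold change 3.10 ± 0.24, 95% interval 2.58 to 3.61, adjusted p = 1.81e-07). The coefficient of variation over the 5 libraries was 39.7% at 100 ng/mL and 11.9% in unstimulated cells.

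The other nitric oxide synthases place this level. Nos3, the endothelial synthase, had 36.7 ± 5.73 RPKM at 100 ng/mL and 23.9 ± 1.73 RPKM in unstimulated cells, so that per length Nos2 stayed below Nos3 at both doses. Nos3 had 236.5, 189.7, 155.6, 217.6 and 183.5 CPM in libraries A to E at 100 ng/mL, against 128.9, 131.6, 112.2, 121.3 and 128.5 CPM in unstimulated cells, with no overlap. Its log2 fold change was 0.66 ± 0.11 (adjusted p = 0.000172). Library A was the highest and C the lowest of the 100 ng/mL group for both Nos2 and Nos3.

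In a list of 21 genes of nitric oxide, arginine and tryptophan metabolism, 19 were tested, 5 were higher and 3 were lower at 100 ng/mL than in unstimulated cells, with a median log2 fold change of -0.04. The 8 of 19 that passed are a share near the 42.9% of all tested genes. Gchfr, which regulates the synthesis of the synthase cofactor tetrahydrobiopterin, and Hmox1, the haem oxygenase that makes carbon monoxide, were higher, with log2 fold changes of 0.54 ± 0.11 and 0.41 ± 0.09. Asl, an enzyme that returns citrulline to arginine, was lower at -0.27 ± 0.06. Arg1, a known competitor of nitric oxide synthase for arginine, was not tested for want of counts.

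Entpd1 and Nt5e form the route from ATP to adenosine. Entpd1 (ENSMUSG00000048120, chr19:40612366-40741602, plus strand) encodes CD39, which removes phosphates from ATP and ADP to give AMP. It had 53.0, 53.9, 39.9, 48.7 and 88.7 CPM in unstimulated libraries A to E, 41.0, 36.2, 40.7, 79.4 and 47.7 CPM with 10 ng/mL, and 26.8, 54.3, 27.2, 26.7 and 22.7 CPM with 100 ng/mL. One library per group was high, namely E, D and B, the 3 that stood apart, and the other 4 of the highest dose lay below all other libraries. Entpd1 fell to 31.5 ± 12.8 CPM at 100 ng/mL, against 56.9 ± 18.6 CPM in unstimulated cells (log2 fold change -0.85 ± 0.28, 95% interval -1.44 to -0.26, adjusted p = 0.0222).

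In this fit, which treats the libraries as unpaired across doses, the Entpd1 call depended on single libraries. Its adjusted p was 0.0670 without unstimulated library E, where the log2 fold change was -0.63, and 0.0505, 0.0504 and 0.0568 without 100 ng/mL libraries A, D and E. Without all 3 libraries that stood apart the log2 fold change was -0.92 ± 0.11 (adjusted p = 1.80e-05). They hold the highest Entpd1 value of each group, so leaving them out narrows the spread. This p-value therefore does not settle how firm the call is. What sets these libraries apart, and whether they are a matched set across the doses, was not tested.

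Nt5e (ENSMUSG00000032420, chr9:88327197-88372092, plus strand) encodes CD73, which turns AMP into adenosine. It had 1.10, 1.01, 0.700, 0.817 and 2.497 CPM in unstimulated libraries A to E, 0.840, 0.578, 0.917, 2.503 and 0.991 CPM with 10 ng/mL, and 0.992, 2.84, 0.304, 0.799 and 0.557 CPM with 100 ng/mL. The same 3 libraries were highest and the groups overlapped throughout. With 9.29 to 92.2 counts per library, the log2 fold change of -0.17 ± 0.55 between 100 ng/mL and unstimulated cells had a 95% interval of -1.33 to 0.996 (adjusted p = 0.834) and so covers changes of either sign. Without the 3 libraries it was -0.45 ± 0.29 (adjusted p = 0.238).

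In a list of 22 genes of purine nucleotide and adenosine handling, 20 were tested, 3 were higher and 5 were lower, with a median log2 fold change of 0.01. The 8 of 20 that passed are a share near the 42.9% of all tested genes. P2rx7, a receptor for extracellular ATP, was higher at 0.72 ± 0.11, and Panx1, a channel that releases ATP, was lower at -0.41 ± 0.09. Adk, which removes adenosine by phosphorylation, was lower at -1.07 ± 0.23, and Enpp2 (autotaxin, an enzyme of lysophosphatidic acid synthesis) at -1.95 ± 0.32. Without the 3 libraries 2 of the list were higher and 5 lower.

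**Figure D3:**
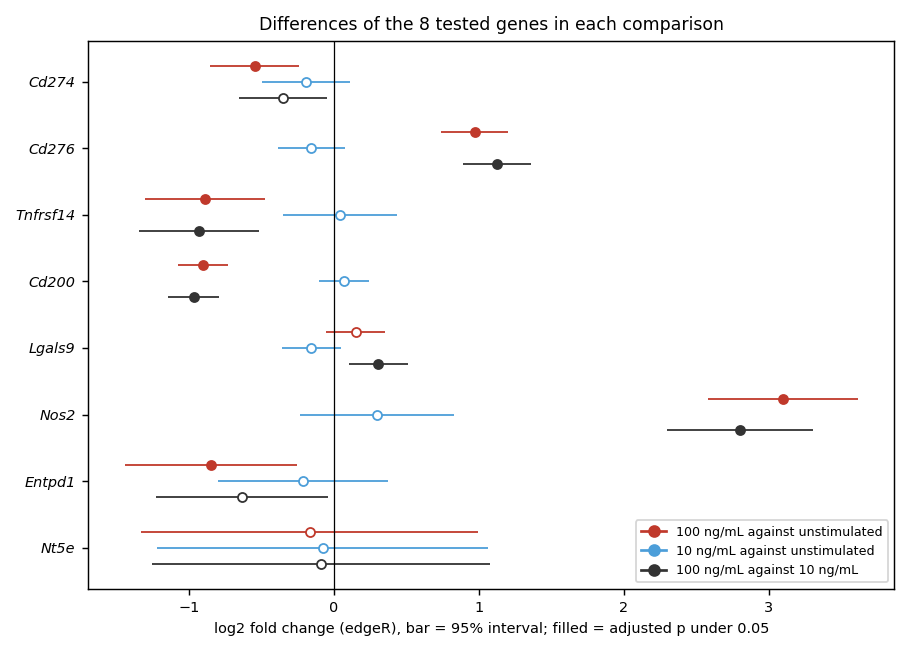
Log2 fold changes of the 8 tested genes with their 95% intervals for 100 ng/mL against unstimulated, 10 ng/mL against unstimulated and 100 ng/mL against 10 ng/mL. The intervals of all 8 genes include 0 at 10 ng/mL against unstimulated, and Nos2 lies farthest from 0 in both comparisons of the highest dose.

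With 10 ng/mL against unstimulated cells, 0 of the 8 genes passed, and the background was 0%, 0% higher and 0% lower. At an unadjusted p under 0.05 edgeR's test had 844 genes of 17650 (4.78%) and 0 of the 8, whose smallest unadjusted p was 0.124, for Lgals9. DESeq2's Wald test called 10 genes and limma-voom 0, none of them in the set. No gene of the set had groups without overlap, as 1.33% of all tested genes did.

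The intervals at 10 ng/mL come from a fit that treats the libraries as unpaired across doses. Within that fit they bound the change of each gene, and they do not show that a gene stayed the same. An analysis with libraries paired under different letters was not run. The log2 fold change against unstimulated cells was 0.30 ± 0.25 for Nos2 (95% interval -0.23 to 0.83), 0.07 ± 0.08 for Cd200 (-0.11 to 0.24), and -0.16 ± 0.11 for Cd276 (-0.39 to 0.08). For Cd274 it was -0.19 ± 0.14 (-0.50 to 0.11) and for Lgals9 -0.16 ± 0.10 (-0.36 to 0.05). Entpd1 at -0.21 ± 0.27 (-0.80 to 0.37), Tnfrsf14 at 0.04 ± 0.18 (-0.35 to 0.43) and Nt5e at -0.08 ± 0.54 (-1.22 to 1.06) had wider intervals.

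Setting 100 ng/mL directly against 10 ng/mL tests the step between the doses, and this comparison shares its 100 ng/mL libraries with the first. Of the 8 genes 5 passed, 3 higher and 2 lower, where 40.5% of all tested genes passed, 19.9% higher and 20.6% lower. Nos2 was higher at 2.80 ± 0.24 (adjusted p = 4.50e-07) and Cd276 at 1.13 ± 0.11 (adjusted p = 1.63e-06), while Cd200 was lower at -0.97 ± 0.08 (adjusted p = 4.33e-07) and Tnfrsf14 at -0.93 ± 0.19 (adjusted p = 0.00141). These 4 had no overlap between groups, as was so for 25.6% of all tested genes.

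Lgals9 was the third higher gene in this comparison. It averaged 593.6 ± 43.9 CPM at 100 ng/mL and 480.3 ± 68.3 CPM at 10 ng/mL, a 1.24-fold difference (log2 fold change 0.31 ± 0.10, 95% interval 0.10 to 0.51, adjusted p = 0.0199), with the 100 ng/mL library higher in 23 of 25 pairs. Cd274 at -0.35 ± 0.14 (adjusted p = 0.0619) and Entpd1 at -0.64 ± 0.28 (adjusted p = 0.0807) did not pass. Without the 3 libraries that stood apart both did, at -0.45 ± 0.13 (adjusted p = 0.0132) and -0.68 ± 0.11 (adjusted p = 0.000225). Those libraries held the highest value of each group for both genes, so leaving them out narrows the spread. Without 100 ng/mL library B alone, the adjusted p of Cd274 and Entpd1 was 0.0115 and 0.00730. Without unstimulated library E or 100 ng/mL library D, that of Cd274 was 0.0498 and 0.0456.

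Within the groups, the genes did not vary as one. The coefficient of variation over 5 libraries was 9.66% unstimulated, 8.29% at 10 ng/mL and 8.92% at 100 ng/mL for Cd200, and 59.5%, 65.5% and 91.6% at the same doses for Nt5e. Deviations from the group mean, on the log2 CPM scale over 15 libraries, went together most closely for Entpd1 and Nt5e (Pearson r = 0.90). The 3 outlying libraries, in each of which Cd274, Entpd1 and Nt5e were the highest of their group, carry that value, which was 0.41 over the 12 libraries without them. Over those 12 libraries Nos2 and Nt5e went together most closely (r = 0.94, against 0.49 over all 15), followed by Lgals9 and Entpd1 (0.80, against 0.50 over all 15). Cd274 and Nt5e gave 0.68 over 12 libraries and 0.80 over all 15. Cd200 deviated the other way from Nt5e (r = -0.67 over 12 and -0.63 over 15) and from Cd274 (-0.67 over 12 and -0.59 over 15).

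**Figure D4:**
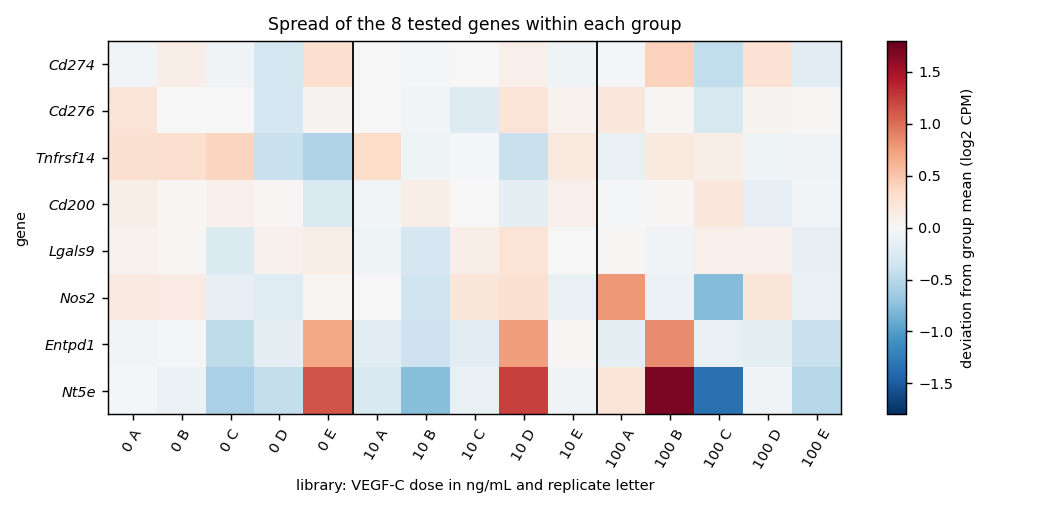
Deviation of each tested gene from its group mean (log2 CPM, colour scale) in the 15 libraries, grouped by dose. Unstimulated library E, 10 ng/mL library D and 100 ng/mL library B are high for Cd274, Entpd1 and Nt5e, with a largest absolute deviation of 1.69.

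The genes most alike in pattern were sought among 11884 protein-coding genes with a mean of at least 1 CPM, by Pearson r of log2 CPM over 15 libraries, which share the split between 100 ng/mL and the other doses. For Nos2 they were Jup (0.99), Tom1l2 (0.99) and Sh2d3c (0.99), and for Cd200 they were Fmo1, Cp and Amigo2 (each 0.99). Cd276 was closest to Plscr3, Sept9 and Sigirr (each 0.98), and Cd274 to Synpo (0.94), Ccl7 (0.93) and Tarbp2 (0.92). Tnfrsf14 was closest to Clec9a (0.95), Entpd1 to Hsp90b1 (0.97) and Nt5e to Surf4 (0.94). With the dose split removed, by deviations from the group means, Nos3 was the gene closest to Nos2 (0.94), Bscl2 to Entpd1 (0.97) and Nap1l4 to Nt5e (0.98). Without the 3 outlying libraries these values were 0.95 for Nos3, 0.75 for Bscl2 and 0.94 for Nap1l4.

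Related gene lists put the set in context at 100 ng/mL against unstimulated cells. In this comparison 42.9% of all tested genes passed, 21.4% higher and 21.5% lower. Of 24 other checkpoint and co-signalling ligands 18 were tested, 3 were higher and 8 lower, with a median log2 fold change of -0.34. Tnfsf18, the ligand of the costimulatory receptor GITR, was lower at -3.63 ± 0.55 (adjusted p = 9.03e-05), with 0.9747 ± 1.12 CPM at 100 ng/mL and 12.01 ± 6.17 CPM unstimulated. Cd40, a receptor that T cells engage through CD40 ligand, was higher at 2.67 ± 0.42 (adjusted p = 0.000133), with 0.933 to 4.93 CPM at 100 ng/mL and at most 0.801 CPM unstimulated. Cd47, the signal that restrains phagocytes, was higher at 0.45 ± 0.07 (adjusted p = 0.000200) and Lgals3, which encodes galectin-3, was lower at -1.23 ± 0.22 (adjusted p = 0.000449). Fgl2, the third higher gene, was named after its values were seen, because 2 libraries carried it, with 2.26, 1.13, 102.3, 3.63 and 22.4 CPM in libraries A to E at 100 ng/mL and 1.84 to 3.17 CPM unstimulated.

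Receptors through which the 9 genes act were nearly all low. Of 11 listed 7 were tested, 0 were higher and 6 lower (median log2 fold change -1.13). Of all tested genes 21.4% were higher and 21.5% lower. Havcr2, which encodes TIM-3, had 0.656 ± 0.227 CPM at 100 ng/mL and 1.64 ± 0.542 CPM unstimulated, and Cd80, which can bind PD-L1, had 1.36 ± 0.654 CPM at 100 ng/mL and 2.57 ± 0.635 CPM unstimulated. Adora2b, an adenosine receptor, had 0.814 ± 1.06 CPM at 100 ng/mL and 2.70 ± 0.896 CPM unstimulated. Rgmb, which binds PD-L2, was the most abundant of the called ones, with 19.6 ± 2.15 CPM at 100 ng/mL and 23.4 ± 0.663 CPM unstimulated (log2 fold change -0.25 ± 0.07, adjusted p = 0.00844).

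Interferon-gamma receptor and signalling genes, through which PD-L1 and Nos2 are classically induced, were all tested. Of 12, 1 was higher and 8 were lower, with a median of -0.37, where 21.4% of all tested genes were higher and 21.5% lower. Irf1 was lower at -0.88 ± 0.12 (adjusted p = 2.74e-05), with 34.8 ± 2.86 CPM at 100 ng/mL and 63.9 ± 8.48 CPM unstimulated. Stat3 was lower at -0.49 ± 0.08, and Irf8 was higher at 0.94 ± 0.16 (adjusted p = 0.000244). In the same comparison Nos2 was higher and Cd274 lower. Whether interferon-gamma signalling bears on either gene was not tested.

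Of 14 suppressive cytokine and prostaglandin genes 10 were tested, 2 were higher and 5 lower, with a median log2 fold change of -0.72. The shares over all tested genes were 21.4% higher and 21.5% lower. Tgfb1, a cytokine that promotes regulatory T cells, was higher at 1.58 ± 0.13 (adjusted p = 4.21e-07), with 294.7 ± 55.6 CPM at 100 ng/mL and 98.7 ± 15.2 CPM unstimulated, whereas Tgfb2 was lower at -1.49 ± 0.22. Itgb8, a subunit of an integrin that activates latent TGF-beta, was lower at -4.00 ± 0.49, and Il18bp, a soluble inhibitor of interleukin-18, at -0.999 ± 0.11. Itgb8 had 0.128 ± 0.0966 CPM at 100 ng/mL, near the floor of 3 counts, and 2.13 ± 0.772 CPM unstimulated, so the size of its fold change is uncertain. A list drawn up for tolerance by lymph node LECs held 19 genes, with antigen presentation, sphingosine-1-phosphate, scavenger receptor and growth factor genes among them. It is broader than tolerance, so its counts do not measure a tolerance programme. Of the 19, 13 were tested, 1 was higher and 10 were lower (median -0.96), where 21.4% of all tested genes were higher and 21.5% lower. In this list H2-K1, a class I antigen-presenting molecule, was lower at -1.17 ± 0.13, Spns2, a sphingosine-1-phosphate transporter, at -1.10 ± 0.11 and Csf1, a macrophage growth factor, at -2.91 ± 0.19, while the receptor gene S1pr1 was higher at 0.60 ± 0.07.

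Paralogues of the 9 genes numbered 14, of which 12 were tested, 2 were higher and 3 lower (median log2 fold change -0.29). Tnfrsf1a, a receptor for tumour necrosis factor, was lower at -0.37 ± 0.05, and Tnfrsf11b, a decoy receptor of the same family, at -2.61 ± 0.79. Tnfrsf11b was low, with 0.305 ± 0.290 CPM at 100 ng/mL and 1.87 ± 1.22 CPM unstimulated. At 10 ng/mL against unstimulated cells no gene of any of these lists passed. The lists were drawn up with earlier results of these data known, so their counts are a description, to be read against the 42.9% of all tested genes that passed. Lists also share genes, Nos3, Lgals3 and Cd80 among them, so their counts are not independent.

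**Figure D5:**
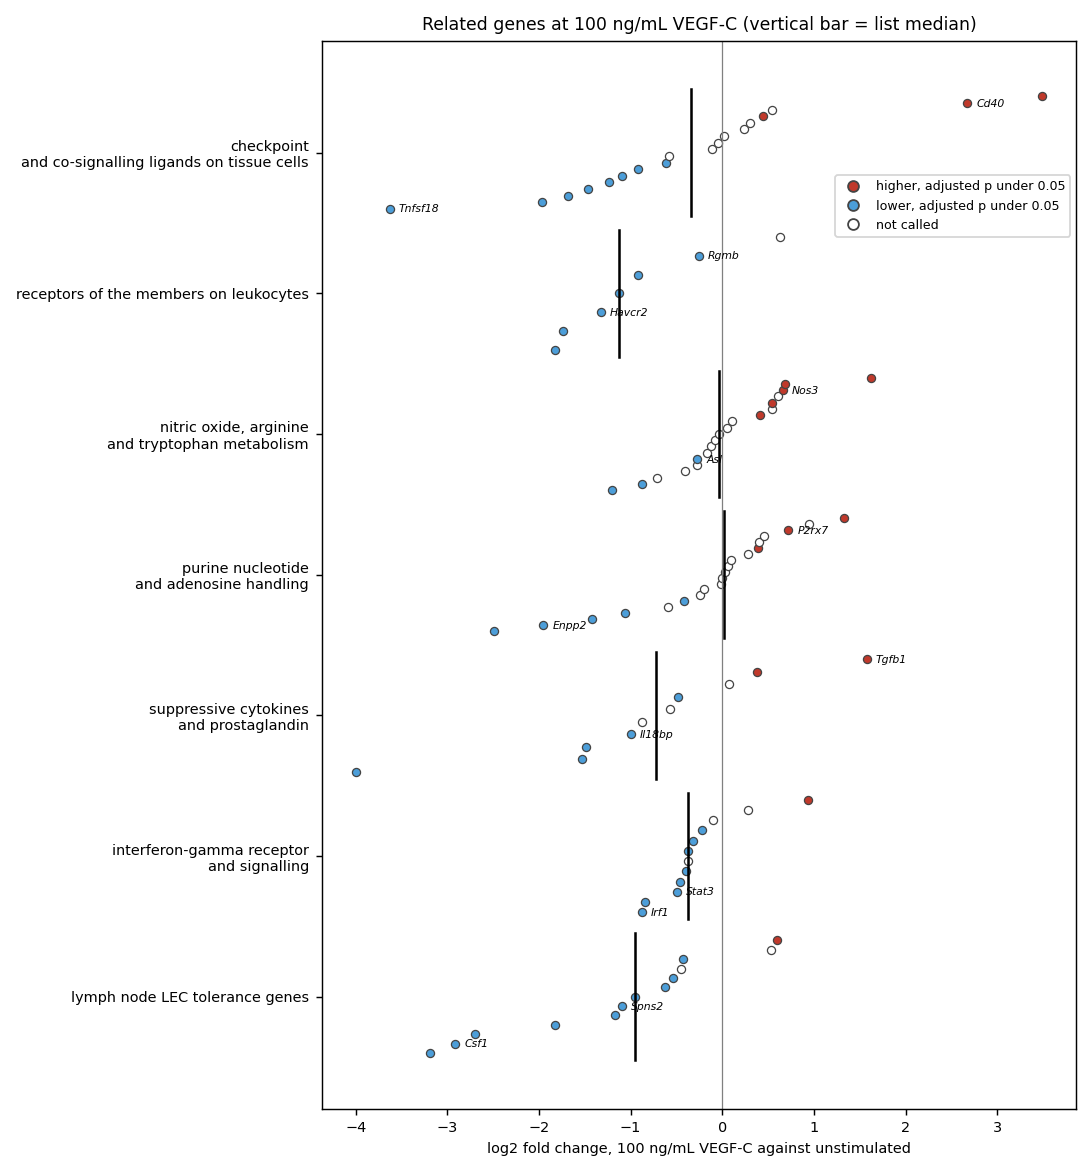
Log2 fold change at 100 ng/mL against unstimulated of each tested gene of 7 related lists (points, coloured by call), with vertical bars at the list medians and the 2 called genes of smallest p that average 1 CPM or more named in each list. The median lies at -0.34 or lower in 5 of the 7 lists and near 0 for nitric oxide and purine genes.

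Most markers of other cells differed at 100 ng/mL, and at 10 ng/mL against unstimulated cells 0 markers of any list passed. The counts at 100 ng/mL against unstimulated cells stand beside 42.9% of all tested genes that passed, 21.4% higher and 21.5% lower. All 5 pan-leukocyte markers were lower at 100 ng/mL, with a summed level of 15.5 to 25.1 CPM at 100 ng/mL and 30.5 to 54.0 CPM unstimulated, and 4 of 6 macrophage and dendritic markers were lower, summing to 17.2 to 28.8 CPM at 100 ng/mL and 34.3 to 106.1 CPM unstimulated. Cd68, a macrophage marker, averaged 8.26 CPM at 100 ng/mL and 8.53 CPM unstimulated. The 6 T and B cell markers summed to 0.169 to 0.542 CPM at 100 ng/mL and 0.545 to 1.96 CPM unstimulated, with Cd3e at or below 0.0260 CPM in all libraries. Fibroblastic and mural markers were lower for 7 of 8 tested, summing to 83.8 to 356.0 CPM at 100 ng/mL and 1246 to 2553 CPM unstimulated, and Ccl19 was at 0 in all unstimulated libraries. Of the 8 LEC markers 4 were higher and 2 lower, and their sum was 6585 to 9135 CPM at 100 ng/mL and 4448 to 5154 CPM unstimulated. That sum includes Pecam1 and Cdh5, which blood endothelium shares. They averaged 1806 and 3450 CPM at 100 ng/mL and 1587 and 2162 CPM unstimulated. The cells had been sorted as Pdpn+ CD31+ CD45- before culture. Leukocytes carry CD45, and fibroblastic and mural cells lack CD31. Which cells made the marker transcripts summed above was not tested. The part of leukocytes and of fibroblastic and mural cells in the changes of Cd274, Cd200, Tnfrsf14, Entpd1 and the receptor genes was not tested either.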

How the data were processed

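RNA abundance was measured in 15 libraries of cultured lymph node LECs, 5 per dose of VEGF-C, with groups and letters taken from the sample titles. The authors deposited estimated counts and RPKM values for 45706 genes, per the file headers. Of the counts as deposited, 64.3% were not whole. The RPKM values deposited by the authors used a library total 1.86 to 1.92 times the count sum, and no source used here says what that total holds. Per the submitters' processing notes, GRCm38 and mm10 were the builds and FastQC, Bowtie2 and limma the tools, with no versions. The counter, its use of strand and its handling of reads that match several genes are not given in those sources, so overlapping genes are uncertain. A second deposited table, a subset, was not used.

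Counts were rounded, filtered with filterByExpr (17650 genes), scaled by TMM and fitted with a quasi-likelihood model of group over all 15 libraries (edgeR 4.0.16, R 4.3.3). P-values were adjusted by Benjamini and Hochberg's method over all tested genes, with a threshold of 0.05. CPM values are means ± SD, n = 5. A standard error is the log2 fold change divided by the square root of F, and 95% intervals use the model's degrees of freedom. The fit was tested on simulated data. Alternatives used DESeq2 1.42.0, limma 3.58.1 (voom, and log2 of RPKM plus 1 or 0.1), other filters and scalings, a replicate block and leaving out libraries. Counting floors (3 counts) cover counting error only, and precision otherwise rests on 5 libraries. A check for libraries deposited more than once found no pair of replicates to merge (smallest chi-square per degree of freedom 8.64).

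The members and lists were chosen with earlier results of these data known. The named genes are the 9 members and, per list and comparison, at most the 4 called genes with the smallest p and a mean of at least 1 CPM, plus the 3 genes most alike in pattern, of which the closest are printed. Some genes that these rules and lists took are not reported here. Coordinates are GENCODE M21 on GRCm38. The marker lists held 8 lymphatic endothelial, 5 pan-leukocyte, 6 macrophage and dendritic, 6 T and B cell, 9 fibroblastic reticular and mural, 4 blood endothelial (1 higher and 1 lower of 4 tested at 100 ng/mL against unstimulated) and 4 epithelial genes (1 higher and 2 lower of 3 tested).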

Additional observations from a re-analysis of the deposited data

Results flagged for a closer look

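Of 27 gene and group combinations of 5 libraries, 10 held a library whose gap to its nearest neighbour was large for the range of its group (Dixon's ratio above 0.71), where chance gives about 1 in 20. The combinations are not independent, because the same libraries recur across genes, so this count is a description and no test. For Entpd1 these were unstimulated library E at 88.7 CPM, 10 ng/mL library D at 79.4 CPM and 100 ng/mL library B at 54.3 CPM. For Nt5e the same libraries stood out, at 2.497, 2.503 and 2.84 CPM. Unstimulated library E was also low for Cd200, at 210.6 CPM against 256.3 CPM in the next library. Unstimulated library C was low for Lgals9, at 448.9 CPM against 539.4 CPM in the next. For Pdcd1lg2, 100 ng/mL library D at 0.0262 CPM and unstimulated library C at 0.0328 CPM stood out, both under the floor of 3 counts.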

How the results depend on the processing

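Directions and calls at 100 ng/mL against unstimulated were kept by Nos2, Cd200, Cd276, Tnfrsf14 and Cd274 under all 26 alternatives. Their log2 fold changes ranged over 1.12 to 3.25 (lowest on log2 of RPKM plus 1, which shrinks low values), -0.97 to -0.87, 0.82 to 1.04, -1.06 to -0.44 and -0.66 to -0.37. Entpd1 kept its direction and passed under 22 of 26, with adjusted p between 1.80e-05 and 0.0670. The set's count of called genes ranged over 5 to 6, 0 to 0 and 5 to 7 when each library was left out in turn, for 100 ng/mL against unstimulated, 10 ng/mL against unstimulated and 100 ng/mL against 10 ng/mL. Over all genes these counts were 6767 to 7876, 0 to 1 and 6251 to 7581. At 10 ng/mL against unstimulated DESeq2's Wald test called 10 genes, where edgeR called 0, and the cause was not tested. At 100 ng/mL against 10 ng/mL, DESeq2's Wald test also called Cd274 (adjusted p = 0.0430) and Entpd1 (0.0467), and limma-voom called Cd274 (0.0398). The replicate letters as given do not pair the libraries: same-letter deviations correlated at -0.34 to 0.13 and 0 of 15 libraries matched their own letter best. Libraries may still be matched across doses under different letters, which was not tested. Ptprc, for one, was highest in unstimulated C, 10 ng/mL B and 100 ng/mL E (6.95, 6.35 and 3.03 CPM). It was lowest in unstimulated B, 10 ng/mL A and 100 ng/mL D (2.68, 2.63 and 1.56 CPM). The replicate block used the letters as given and does not cover such a pairing. With the replicate block the set had 6, 0 and 5 called genes, and 7069, 0 and 6582 genes were called in all, against 7571, 0 and 7157 without it. Depth limits Pdcd1lg2, which had fewer than 3 counts in every library. Leaving out the 3 libraries that stood apart, an alternative chosen after seeing the data (as for the correlations without them), changed these list counts at 100 ng/mL against unstimulated: higher interferon-gamma genes to 2 with all libraries giving 1, checkpoint ligands to 4 with all giving 3, nitric oxide genes to 4 with all giving 5, purine genes to 2 with all giving 3, LEC markers to 6 with all giving 4 and blood endothelial markers to 2 with all giving 1, and lower fibroblastic and mural markers to 6 with all giving 7. The other list counts did not change.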
